A study of Homo sapiens with 38 samples.

Results

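The integrins, collagens and laminins were taken as every protein-coding gene whose symbol starts with ITGA, ITGB, COL or LAM and follows the naming of these families. The rule chose 86 of 58735 genes in the RNA-seq table, of which 19951 were protein-coding. They were 44 collagen chains, 12 laminin chains, 18 integrin α subunits, 8 integrin β subunits and 4 genes that carry such a symbol but encode no subunit (ITGB1BP1, ITGB1BP2, ITGB3BP and ITGBL1). In the screens, 84 of the 86 genes had guides, with 318 of 66890 guides in Hep3B and 314 of 66582 in SNU-398. COL26A1 and COL6A5 had none in either table.

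Collagens and laminins are secreted chains that assemble into trimers. Type IV collagen and laminin form the separate networks of basement membranes, while the fibrillar collagens give tissue its tensile strength. Integrins are receptors made of 1 α and 1 β subunit that link these matrix proteins to the actin cytoskeleton, and the pair of subunits sets which ligand is bound. In the liver, laminin and collagen-rich matrix accumulate around hepatocytes during fibrosis, the setting in which most HCC arises.

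RNA-seq covered 3 PSTK-KO and 3 control libraries of cells labelled Hep3B, a human HCC line. PSTK phosphorylates a seryl-tRNA, a step in making selenocysteine, and PSTK-KO cells (genotype PSTK-/-) were Cas9-expressing cells given a lentiviral vector with a pair of PSTK guides and selected as a puromycin-resistant population, which no source describes as a clone. Control cells carry the genotype label wild type, and the study's figures describe its control cells as given a control guide. The screens covered Cas9-expressing Hep3B and SNU-398 cells carrying a genome-wide guide library, with 8 groups in duplicate in each line: Sorafenib, Regorafenib, Lenvatinib, Erastin, Abemaciclib and Palbociclib for 14 days, T1, which is taken here as vehicle for 14 days since no label names it, and T0, harvested before treatment. The first 3 block tyrosine kinases, Erastin blocks the uptake of cystine, and the last 2 block the cell cycle kinases CDK4 and CDK6.

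The RNA-seq libraries held 15404153 to 16851558 counts and the screen libraries 11198022 to 46376708. PSTK mRNA was at 4.003, 4.34 and 5.07 CPM in PSTK-KO libraries, against 4.78, 5.09 and 4.14 CPM in control libraries, with a log2 fold change of -0.06 ± 0.18 (SE; edgeR, adjusted p = 0.840), so its level did not separate the groups and PSTK-KO and control are used here as the labels give them. Of 12 markers of the hepatocyte lineage, only HNF4A, a liver transcription factor, was clearly present in the cells labelled Hep3B, at 14.5 to 18.1 CPM in PSTK-KO and 24.6 to 28.2 CPM in control libraries. It made up most of the sum of the 12, which was 15.5 to 19.6 CPM in PSTK-KO and 27.8 to 32.8 CPM in control libraries. ALB and FGB passed the filter on low counts at no more than 37 and 11 counts in any library, AFP had at most 3, and the other 8 were below the filter. Markers of fibroblasts summed to 17.9 to 19.6 CPM in PSTK-KO and 26.5 to 29.5 CPM in control libraries, those of endothelium to 8.19 to 10.9 CPM and 13.4 to 14.4 CPM, and those of blood to 0.762 to 1.71 CPM and 1.33 to 1.94 CPM, and their part in the results was not tested. Nothing in the labels says that replicates came from separate cultures, so a p-value covers the spread among these libraries alone, which may be technical.

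In the RNA-seq, 51 of the 86 genes passed the filter on low counts. The other 35 had at most 29 counts in any library, and 6 of them (COL19A1, COL22A1, COL6A5, COL9A1, ITGA4 and ITGA8) had no count in any. Of the 51 genes, 18 were higher and 15 lower in PSTK-KO than in control at an adjusted p under 0.05 (edgeR quasi-likelihood test with Benjamini-Hochberg adjustment over 15370 genes). Over all genes tested, 32.8% were called, 15.6% as higher and 17.2% as lower. Calls were more frequent among highly expressed genes: of the 18 members with a mean of at least 100 CPM, 14 were called, against 50.8% of all genes at that level, and of the 18 with 10 to 100 CPM, 12 were called, against 37.7%. Of the 15 members under 10 CPM, 7 were called, beside 18.7%, but nothing is read from that count. The filter asked for the CPM of 10 counts in the median library in at least 3 libraries, and 5 of the 7 (COL13A1, COL8A1, ITGB2, ITGB3 and LAMA4) passed it only through their PSTK-KO libraries, where they are high. Without these 5, 13 members were higher and 15 lower, and no member called lower had passed through the control libraries alone. For these 5 the adjusted p printed here is that of the fit with no filter, over 32176 genes, while the log2 fold change and SE are those of the main fit. The adjusted p with no filter was smaller than that of the main fit for all 5. These values describe the 5 genes, and no conclusion is drawn from them.

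The families differed in their counts of calls. Of the 14 integrin subunits tested, 9 were higher, 1 was lower and 4 were not called, with a median log2 fold change of 0.34. Of the 24 collagens, 5 were higher, 11 lower and 8 not called, with a median of -0.19. Of the 11 laminin chains, 4 were higher, 2 lower and 5 not called, with a median of 0.11. Leaving out the 5 that passed only through PSTK-KO libraries, 7 integrin subunits, 3 collagens and 3 laminin chains were higher. The family medians still include these 5 genes, which raises them, so no conclusion is drawn from the medians. The median over all genes tested was -4.77e-05. These counts describe the families, and the difference between them was not tested. Summed over all 26 integrin subunits, the family took 1808, 1896 and 1856 CPM in PSTK-KO libraries, against 1592, 1646 and 1485 CPM in control libraries. The collagen family took 3777, 3651 and 3708 CPM in PSTK-KO libraries, against 4616, 4022 and 4166 CPM in control libraries. Every PSTK-KO library thus lay above every control library for the integrin sum and below every control library for the collagen sum. The laminin sums overlapped, at 1862, 1955 and 1907 CPM in PSTK-KO and 2122, 2047 and 1920 CPM in control libraries. A few abundant genes weigh most in these sums. ITGB1, not called, had a mean of 632 CPM in PSTK-KO and 582 CPM in control libraries. COL5A1, which rose, had 1210 and 1082 CPM. How often sums of other genes separate the groups was not tested.

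**Figure D1:**
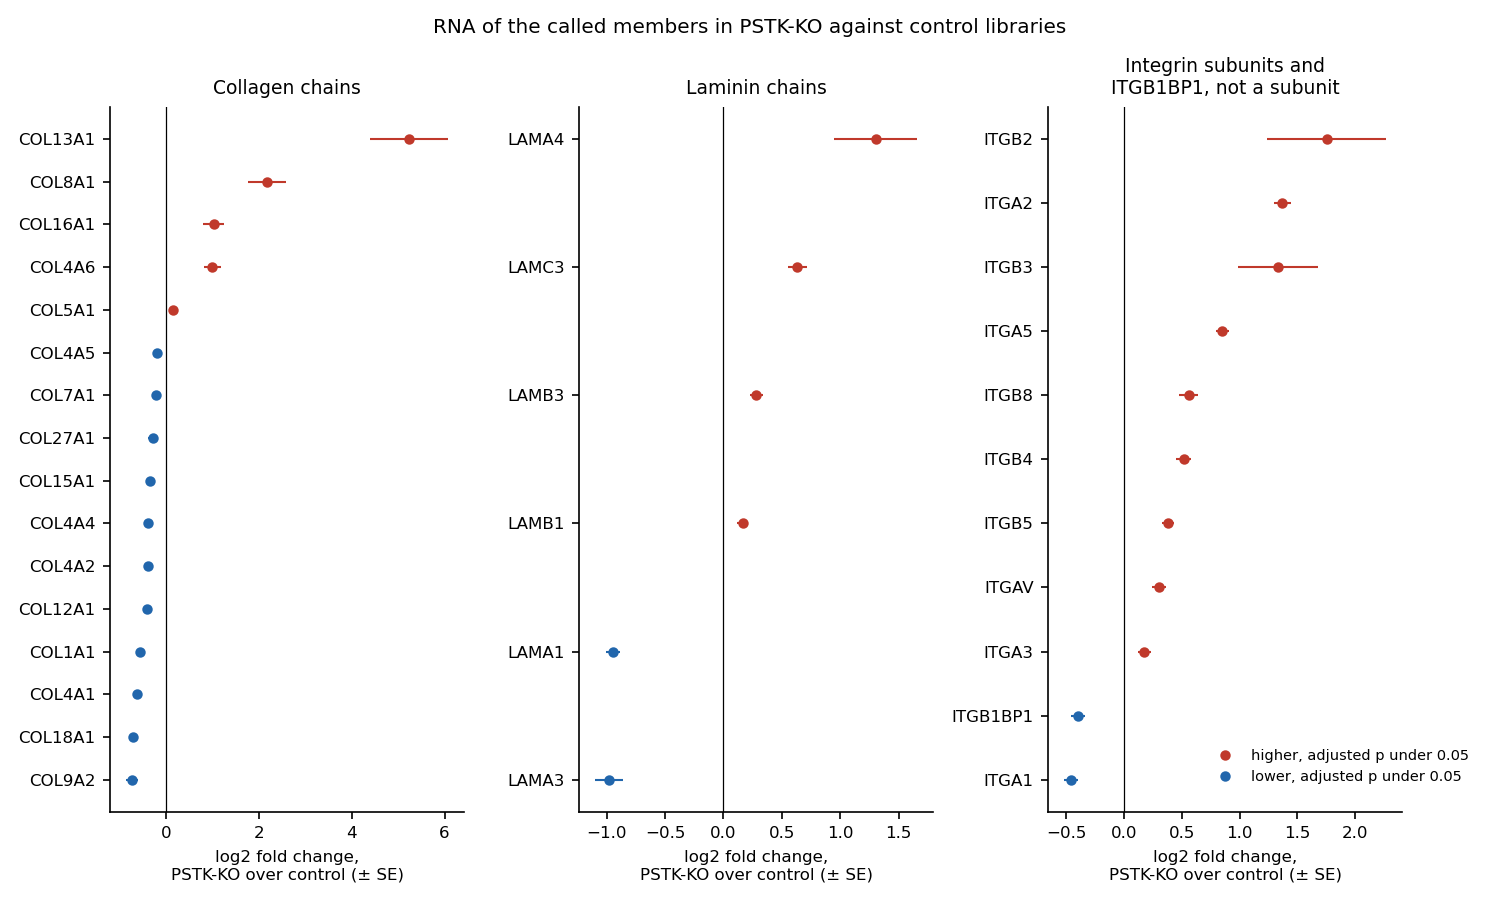
Log2 fold change of PSTK-KO over control (horizontal axis, ± SE, n = 3 libraries per group) for the members called at an adjusted p under 0.05, with collagens, laminins, and integrin subunits with ITGB1BP1 in separate panels, each with its own horizontal scale. Of the integrin subunits, 9 lay above 0 as called and ITGA1 alone was called below 0, while 11 collagens lay below 0 and 5 above. Without the members that passed the filter only through PSTK-KO libraries, 7 integrin subunits and 3 collagens lay above 0. Over all genes tested, 15.6% were called higher and 17.2% lower.

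The type IV collagens, which form the sheet of the basement membrane, are arranged in the genome as 3 pairs whose members are transcribed away from each other. COL4A1 (chr13:110148963-110307233, minus strand) and COL4A2 (chr13:110305812-110513209, plus strand) encode the chains of the most widespread trimer and lie in opposite directions, with 126 bases between their RefSeq starts. The interval is shown because both genes fell together, and it is read along the strand of COL4A2 (RefSeq, GRCh38.p14, chr13:110307158-110307283), with the motifs CCAAT and GGGCGG in capitals.
COL4A1-COL4A2: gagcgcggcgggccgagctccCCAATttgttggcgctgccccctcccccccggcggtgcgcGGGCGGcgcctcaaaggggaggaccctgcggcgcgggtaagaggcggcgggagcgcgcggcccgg
The letters CCAAT, searched on both strands, were found in 21.1% of 35116 RefSeq promoter windows cut to the same 126 bases, and GGGCGG in 34.6%. The motifs do not overlap each other here, and a match is a description, not a site.

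COL4A1 stood at 278, 289 and 280 CPM in PSTK-KO libraries, against 452, 411 and 436 CPM in control libraries. Its log2 fold change was -0.62 ± 0.05 (SE, edgeR, adjusted p = 3.73e-12), and the groups did not overlap. COL4A2 stood at 646, 614 and 617 CPM in PSTK-KO libraries, against 898, 731 and 813 CPM in control libraries, with a log2 fold change of -0.38 ± 0.05 (adjusted p = 7.66e-07). Set against each other, the ratio of COL4A1 to COL4A2 by FPKM, a unit per gene length, was 0.563, 0.616 and 0.593 in PSTK-KO libraries and 0.659, 0.735 and 0.701 in control libraries. The exact permutation test of this ratio gave p = 0.10, the smallest that 3 against 3 libraries can reach. It gave the same for each of the 6 ratios between members that were computed (Benjamini-Hochberg adjusted p = 0.10 each). All these pairs were chosen and hold a called member, which favours such a result. The annotations of both genes share 1422 bases on opposite strands, and whether counting used strand is not given in the sources used here.

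The other type IV chains were expressed at lower levels. COL4A4, a chain of the mature glomerular network, was lower, with 35.8, 33.6 and 33.9 CPM in PSTK-KO libraries against 46.3, 43.4 and 44.3 CPM in control libraries (log2 fold change -0.38 ± 0.07, edgeR adjusted p = 1.003e-04). COL4A3, its partner across 418 bases on chromosome 2, was not called, at -0.18 ± 0.11 (adjusted p = 0.217). COL4A5 and COL4A6 start 379 bases apart on chromosome X and moved in opposite directions. COL4A5 had 52.5, 50.2 and 51.7 CPM in PSTK-KO libraries against 63.4, 58.6 and 54.8 CPM in control libraries (-0.20 ± 0.07, adjusted p = 0.0243). COL4A6 had 6.74, 9.48 and 9.33 CPM in PSTK-KO libraries against 4.91, 3.40 and 4.47 CPM in control libraries (1.003 ± 0.18, adjusted p = 2.96e-05). The ratio of COL4A6 to COL4A5 by FPKM was 0.212 ± 0.042 in PSTK-KO and 0.0924 ± 0.0160 in control libraries (SD, n = 3 each). Of the 6 type IV chains, 4 were thus lower, 1 was higher and 1 was not called.

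Of the collagens of basement membranes and the zone beneath them outside type IV, COL18A1, COL15A1 and COL7A1 were called lower. COL17A1, the transmembrane collagen of hemidesmosomes, was below the filter, with 10, 9 and 29 counts in PSTK-KO libraries against 6, 0 and 5 in control libraries. COL18A1, whose C-terminal fragment is endostatin, had 86.3, 84.3 and 82.7 CPM in PSTK-KO libraries against 152, 125 and 135 CPM in control libraries (log2 fold change -0.70 ± 0.06, edgeR adjusted p = 6.92e-11). COL15A1, a close relative of COL18A1, fell by 0.35 ± 0.09 on the log2 scale (adjusted p = 0.00171), to between 21.7 and 22.9 CPM in PSTK-KO libraries against 28.2 to 28.7 CPM in control libraries. COL18A1 overlaps SLC19A1 on the opposite strand, whose mean count was 509 in PSTK-KO and 400 in control libraries. COL7A1, which makes the anchoring fibrils beneath epithelia, was the second most abundant collagen, at 80.1 ± 5.4 FPKM in PSTK-KO and 92.0 ± 9.4 FPKM in control libraries (SD, n = 3 each). Its log2 fold change was -0.20 ± 0.06 (adjusted p = 0.00435), the groups overlapped, and the call was lost in DESeq2 (adjusted p = 0.144).

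Among the fibrillar collagens and those that bind fibrils, COL5A1 was the most abundant collagen of all. This chain of type V collagen, which starts fibril assembly, rose slightly, with 1247, 1205 and 1178 CPM in PSTK-KO libraries against 1176, 1037 and 1033 CPM in control libraries (log2 fold change 0.16 ± 0.05, edgeR adjusted p = 0.00789). Without PSTK-KO replicate 1 its adjusted p was 0.0600. COL1A1, a chain of type I collagen, had 23.8, 24.0 and 26.8 CPM in PSTK-KO libraries against 37.9, 38.3 and 32.9 CPM in control libraries (-0.55 ± 0.08, adjusted p = 3.92e-06). COL1A2, its usual partner, had at most 1 count in any library. COL12A1, which binds the surface of fibrils, fell by 0.41 ± 0.06 on the log2 scale (adjusted p = 4.14e-07), with levels of 30.1 ± 2.0 FPKM in PSTK-KO and 39.9 ± 3.5 FPKM in control libraries. COL9A2, a chain of cartilage type IX collagen, had the largest fall of any collagen, at 10.3, 10.6 and 9.91 CPM in PSTK-KO libraries against 17.2, 14.0 and 19.9 CPM in control libraries (-0.73 ± 0.13, adjusted p = 2.72e-05).

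The largest positive log2 fold changes among collagens were those of rare transcripts, and COL13A1 and COL8A1 are among the 5 that passed the filter only through PSTK-KO libraries. COL13A1, a transmembrane collagen, had 11, 18 and 24 counts in PSTK-KO libraries against 1, 0 and 0 in control libraries, a ratio of 54.0 per library size (exact 95% interval 9.28 to 2171, which covers counting error only). Its fitted log2 fold change of 5.24 ± 0.84 depends on the prior count (edgeR with no filter, adjusted p = 3.02e-08). COL8A1, a network-forming chain found in vessel walls, had 1.46, 2.51 and 2.33 CPM in PSTK-KO libraries against 0.252, 0.788 and 0.324 CPM in control libraries (2.18 ± 0.42, adjusted p = 8.36e-07 with no filter). COL16A1, which associates with other collagen networks, had 4.45, 4.34 and 4.08 CPM in PSTK-KO libraries against 1.70, 2.36 and 2.20 CPM in control libraries (1.03 ± 0.23, adjusted p = 5.59e-04). All 3 genes stayed under 5 CPM. Their groups did not overlap, but for COL13A1 and COL8A1 the way through the filter favours this, so nothing is read from it. On the log2(FPKM + 1) scale, which shrinks the change of low genes, COL8A1 and COL16A1 were no longer called (limma, adjusted p = 0.162 and 0.0938).

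**Figure D2:**
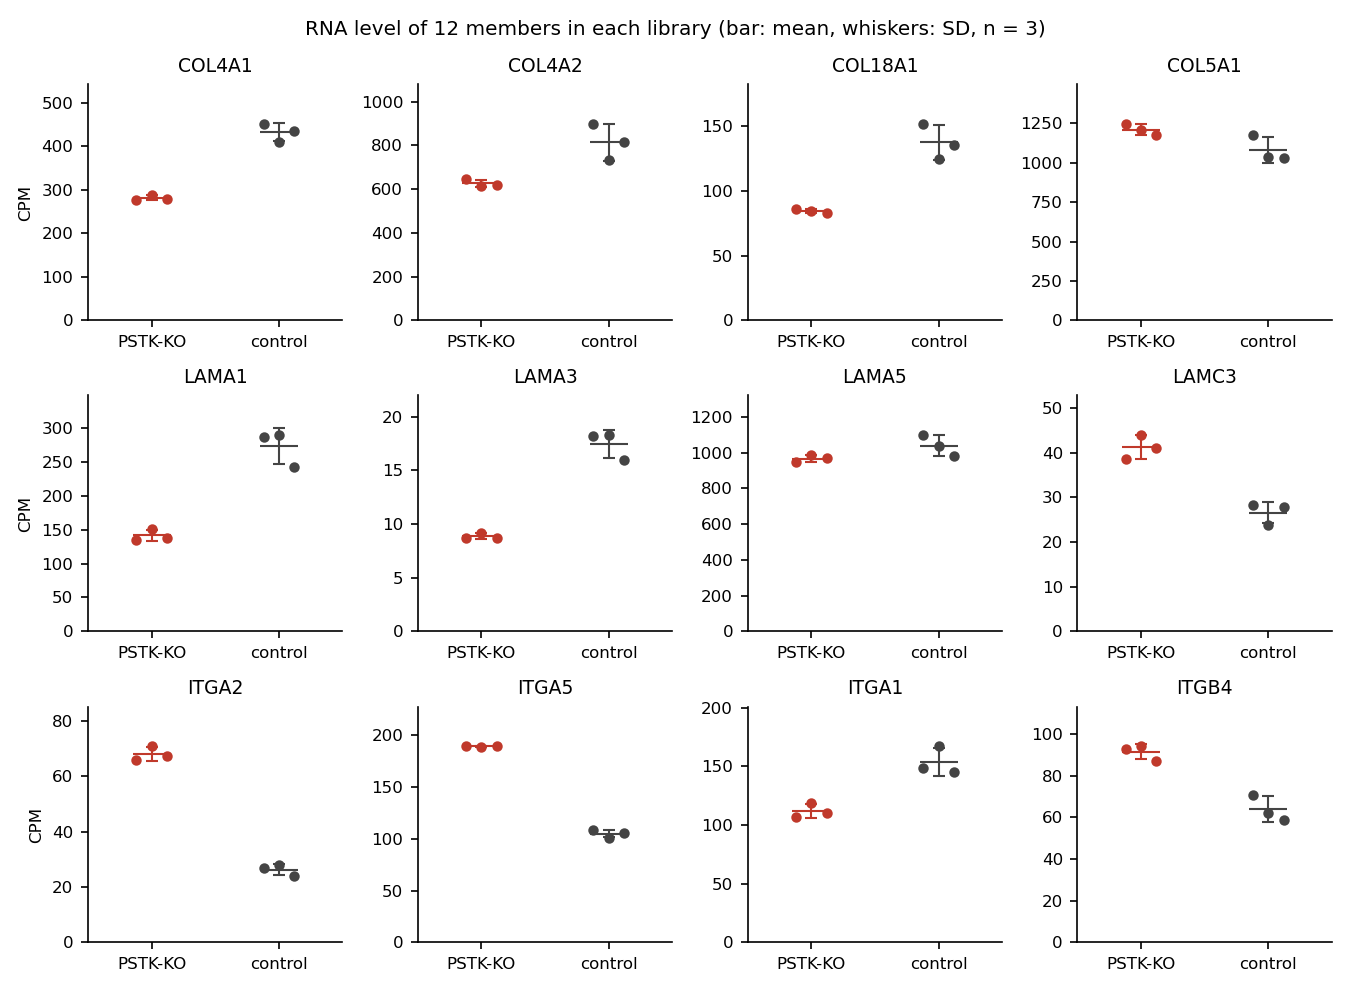
CPM (vertical axis, from 0) of 12 members in the 3 PSTK-KO libraries (left) and 3 control libraries (right) of each panel, with the mean as a bar and the SD as whiskers. The panels show chosen members, of which 11 were called. The groups did not overlap in these 11, which that choice favours, and the libraries of LAMA5, which was not called, overlapped.

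A laminin trimer holds 1 α, 1 β and 1 γ chain, and the α chain carries the main integrin-binding domain. The 2 falls were both in α chains. LAMA1 (chr18:6941744-7117814), the α chain of embryonic basement membranes, stood at 135, 151 and 138 CPM in PSTK-KO libraries, against 287, 290 and 242 CPM in control libraries, a log2 fold change of -0.95 ± 0.06 (edgeR adjusted p = 2.75e-14). LAMA3, the α chain of the epithelial laminin of hemidesmosomes, had 8.70, 9.17 and 8.75 CPM in PSTK-KO libraries against 18.2, 18.3 and 15.99 CPM in control libraries (-0.98 ± 0.12, adjusted p = 5.64e-08). LAMA5, the most abundant laminin chain at 67.2 ± 1.5 FPKM in PSTK-KO and 72.1 ± 4.5 FPKM in control libraries, was not called (-0.11 ± 0.05, adjusted p = 0.0739). It was called when control replicate 3 was left out (-0.15, adjusted p = 0.00354). LAMA4, a chain of vessel and muscle laminins, was higher but rare, with 1.84, 2.81 and 2.04 CPM in PSTK-KO libraries against 0.503, 0.849 and 1.36 CPM in control libraries (1.30 ± 0.36, edgeR with no filter, adjusted p = 0.00117). LAMA2, the α chain of muscle laminin, had at most 1.152 CPM in any library and was not called (-0.33 ± 0.47, adjusted p = 0.646). The ratio of LAMA1 to LAMA5 by FPKM was 0.132 ± 0.006 in PSTK-KO and 0.236 ± 0.014 in control libraries (SD, n = 3 each).

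No β or γ chain fell. LAMB1, the β chain of the classical laminin trimer, had 276, 278 and 275 CPM in PSTK-KO libraries against 246, 241 and 252 CPM in control libraries (log2 fold change 0.17 ± 0.05, edgeR adjusted p = 0.00708), and it shares 7932 bases with DLD on the opposite strand. LAMB3, a β chain that assembles with LAMA3, rose while LAMA3 fell, with 140, 152 and 145 CPM in PSTK-KO libraries against 122, 120 and 118 CPM in control libraries (0.28 ± 0.05, adjusted p = 1.03e-04). LAMC3 had 38.6, 44.0 and 41.0 CPM in PSTK-KO libraries against 28.2, 23.8 and 27.7 CPM in control libraries (0.63 ± 0.08, adjusted p = 1.74e-07). LAMC1, the γ chain of most laminins, was not called (0.11 ± 0.05, adjusted p = 0.118). The ratio of LAMC3 to LAMC1 by FPKM was 0.154 ± 0.005 in PSTK-KO and 0.108 ± 0.014 in control libraries (SD, n = 3 each). LAMB2 was not called either, at -0.10 ± 0.09 (adjusted p = 0.412).

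Of the integrins, those that bind collagen showed the sharpest contrast. ITGA1 (chr5:52787896-52959210) and ITGA2 (chr5:52989326-53094779) are neighbours on the plus strand that encode the α subunits of both main collagen receptors, each paired with ITGB1. ITGA2 had 65.8, 70.9 and 67.2 CPM in PSTK-KO libraries against 27.0, 27.8 and 24.1 CPM in control libraries, a log2 fold change of 1.37 ± 0.07 (edgeR adjusted p = 3.28e-16). ITGA1 had 107, 119 and 110 CPM in PSTK-KO libraries against 149, 168 and 145 CPM in control libraries (-0.46 ± 0.06, adjusted p = 1.86e-07). The 2 neighbours thus moved in opposite directions, and the ratio of ITGA2 to ITGA1 by FPKM was 1.44, 1.40 and 1.43 in PSTK-KO libraries and 0.426, 0.389 and 0.390 in control libraries. By FPKM, ITGA2 was thus below ITGA1 in every control library and above it in every PSTK-KO library. ITGA1 holds the whole of PELO on its own strand, and PELO had mean counts of 1024 in PSTK-KO and 989 in control libraries.

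**Figure D3:**
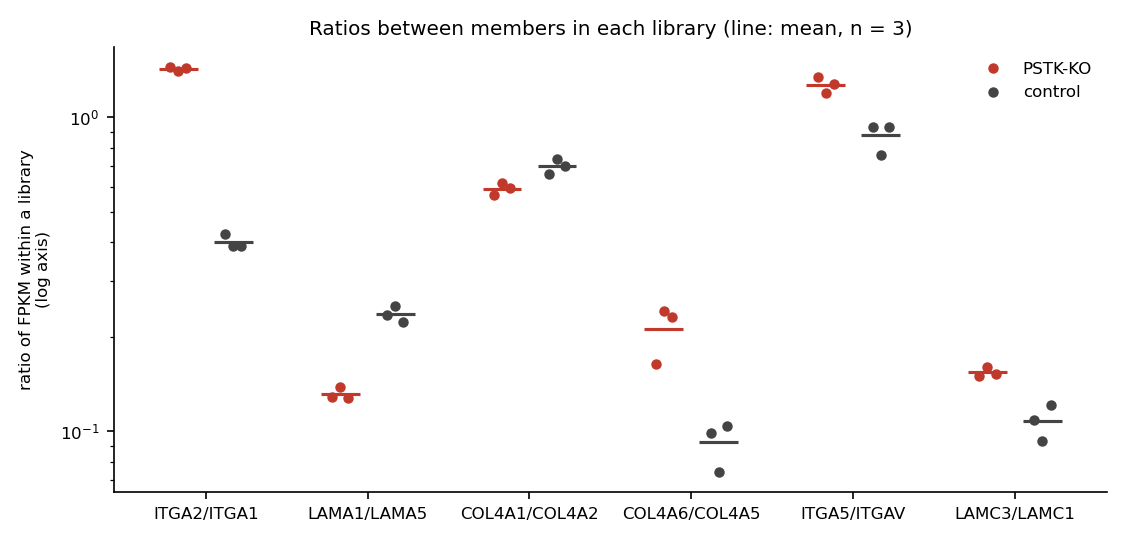
Ratio of FPKM between 2 members within each library (vertical log axis) for 6 pairs, with the 3 PSTK-KO libraries left of the 3 control libraries and a line at the mean. The pairs were chosen, and each holds a member called in these same libraries. Each pair separated the groups without overlap, which that choice favours, so nothing is read from it. The ratio of ITGA2 to ITGA1 averaged 1.42 in PSTK-KO and 0.401 in control libraries.

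ITGA5 and ITGAV are the α subunits of receptors for fibronectin and vitronectin. ITGA5 had 190, 189 and 189 CPM in PSTK-KO libraries against 108, 101 and 105 CPM in control libraries (log2 fold change 0.85 ± 0.05, edgeR adjusted p = 1.17e-14). ITGAV had 153, 171 and 161 CPM in PSTK-KO libraries against 126, 144 and 122.6 CPM in control libraries (0.31 ± 0.06, adjusted p = 1.38e-04). Both rose with no overlap between groups, and the ratio of ITGA5 to ITGAV by FPKM was 1.27 ± 0.07 in PSTK-KO and 0.874 ± 0.10 in control libraries (SD, n = 3 each). Of the α subunits that bind laminin, ITGA3 rose slightly (0.18 ± 0.05, adjusted p = 0.0106), while ITGA6 stayed at 20.8 ± 0.7 FPKM in PSTK-KO and 21.1 ± 1.2 FPKM in control libraries (-0.02 ± 0.05, adjusted p = 0.802). The call of ITGA3 was lost without PSTK-KO replicate 3 (adjusted p = 0.0659). ITGA7, which also binds laminin, and ITGAE, which binds E-cadherin, were not called (adjusted p = 0.970 and 0.451).

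The RefSeq windows of ITGA2 and ITGA5, the best expressed integrin subunits among those with a rise above 0.8, and of LAMA3, the largest fall, are shown as the 250 bases before the RefSeq start, along the strand of each gene (RefSeq, GRCh38.p14). They lie at chr5:52989102-52989351, chr12:54419267-54419516 on the minus strand, and chr18:23872770-23873019. The window of LAMA3 lies inside the gene: the RNA-seq table places LAMA3 at chr18:23689443-23956222 on the plus strand, and the RefSeq start used here is 183577 bases into it, so the window precedes an internal start and not the start of the longest transcript. Capitals mark matches to GGGCGG, which reads CCGCCC where it lies on the other strand, and to TGANTCA, the motif of AP-1 factors, and CCAAT was searched without a match, and no 2 of the marked motifs overlap.
ITGA2: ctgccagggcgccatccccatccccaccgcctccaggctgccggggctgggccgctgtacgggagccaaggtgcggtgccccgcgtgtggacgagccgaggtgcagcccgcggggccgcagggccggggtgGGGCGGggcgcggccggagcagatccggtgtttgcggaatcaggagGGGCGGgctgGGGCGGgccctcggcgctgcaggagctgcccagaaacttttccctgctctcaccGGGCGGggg
ITGA5: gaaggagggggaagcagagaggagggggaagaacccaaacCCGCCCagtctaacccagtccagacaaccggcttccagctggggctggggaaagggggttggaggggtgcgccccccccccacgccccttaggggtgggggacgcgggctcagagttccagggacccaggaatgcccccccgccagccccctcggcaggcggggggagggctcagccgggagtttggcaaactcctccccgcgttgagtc
LAMA3: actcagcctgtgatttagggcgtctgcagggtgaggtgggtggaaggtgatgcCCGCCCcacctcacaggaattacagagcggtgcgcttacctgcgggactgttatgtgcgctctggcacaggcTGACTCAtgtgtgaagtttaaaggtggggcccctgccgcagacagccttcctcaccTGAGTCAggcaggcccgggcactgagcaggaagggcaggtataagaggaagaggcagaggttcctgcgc
ITGA2 held 4 matches to GGGCGG, ITGA5 and LAMA3 1 each, and LAMA3 alone of the 3 held TGANTCA, with 2 matches. Of 35116 RefSeq windows of 250 bases, 42.6% held GGGCGG, 32.01% CCAAT and 6.57% TGANTCA. RefSeq windows were found for 62 of the 86 genes. GGGCGG was found in at least 1 window of 9 of the 12 called risers that had a window. The same held for 9 of the 13 called fallers, and TGANTCA was found in 1 gene of each, LAMB3 and LAMA3. Some of these genes have more than 1 window, so these counts of genes are not comparable with the shares of single windows.

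ITGB1, the β subunit shared by most collagen and laminin receptors, was the most abundant integrin, at 105 ± 4 FPKM in PSTK-KO and 96.0 ± 9.0 FPKM in control libraries (SD, n = 3 each). It was not called (log2 fold change 0.12 ± 0.05, edgeR adjusted p = 0.0755), but it was called when control replicate 2 was left out (0.18, adjusted p = 0.00523). ITGB5, a partner of ITGAV, had 226, 231 and 225 CPM in PSTK-KO libraries against 180, 172 and 173 CPM in control libraries (0.38 ± 0.05, adjusted p = 2.36e-07). ITGB4, the partner of ITGA6 in hemidesmosomes, had 93.0, 94.4 and 87.3 CPM in PSTK-KO libraries against 71.0, 62.0 and 58.9 CPM in control libraries (0.52 ± 0.07, adjusted p = 1.58e-07). ITGB8, another partner of ITGAV that can activate latent TGF-β, had 30.8, 37.0 and 35.3 CPM in PSTK-KO libraries against 22.5, 24.3 and 23.3 CPM in control libraries (0.56 ± 0.09, adjusted p = 3.90e-06). These 3 β subunits rose with no overlap between groups, though ITGB4 shares 6225 bases with GALK1 on the opposite strand. ITGB3, which also pairs with ITGAV, and ITGB2, the leukocyte β subunit, are rare transcripts that passed the filter only through PSTK-KO libraries, with log2 fold changes of 1.33 ± 0.35 and 1.76 ± 0.51 (edgeR with no filter, adjusted p = 7.76e-04 and 0.00649). No control library of ITGB2 reached the level the filter asks for. ITGB3 had 2.22 to 2.35 CPM in PSTK-KO libraries against 0.440 to 1.17 CPM in control libraries, and ITGB2 had 0.917 to 1.27 CPM in PSTK-KO libraries against 0.0629 to 0.453 CPM in control libraries. The call of ITGB2 was lost without control replicate 1 (adjusted p = 0.0688), and neither gene was called on the log2(FPKM + 1) scale (limma, adjusted p = 0.0618 for ITGB3 and 0.315 for ITGB2). The leukocyte α subunits that pair with ITGB2 (ITGAL, ITGAM, ITGAX and ITGAD) were all below the filter.

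Of the 4 genes that are not subunits, ITGB1BP1, a protein that binds the tail of ITGB1 and restrains its activation, fell, with 61.3, 67.9 and 62.7 CPM in PSTK-KO libraries against 84.5, 80.5 and 87.5 CPM in control libraries (log2 fold change -0.40 ± 0.06, edgeR adjusted p = 6.13e-06). ITGB3BP, which is known as a kinetochore protein, was not called (0.05 ± 0.09, adjusted p = 0.722), and ITGB1BP2 and ITGBL1 were below the filter. ITGB1BP1 overlaps ASAP2 on the opposite strand, whose mean count was 1039 in PSTK-KO and 772 in control libraries.

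Genes that act with these families were taken from 5 lists. Of the 30 integrin activators and focal adhesion genes, all were tested, 7 were higher and 10 lower, with a median log2 fold change of 0.05 beside -4.77e-05 over all genes tested. Of the 123 tested genes of the 5 lists, 98 had a mean of at least 10 CPM, and of all genes at that level 18.2% were higher and 22.7% lower. The shares of this list were 23.3% and 33.3%. PARVA, which ties integrin-linked kinase to actin, fell by 0.49 ± 0.05 on the log2 scale (edgeR adjusted p = 6.51e-09), TNS3 by 0.44 ± 0.06 (adjusted p = 6.46e-07), and ZYX, a focal adhesion protein, rose (0.40 ± 0.05, adjusted p = 1.35e-07). Of 27 tested genes for collagen folding, modification and cross-linking, 6 were higher and 10 lower (22.2% and 37.0%), with a median of -0.03. CRTAP and P3H1, which form a complex that hydroxylates a proline of fibrillar collagens, were both lower (-0.60 ± 0.05 and -0.50 ± 0.06, adjusted p = 1.06e-10 and 2.33e-08), as was the collagen chaperone FKBP10 (-0.42 ± 0.05, adjusted p = 5.39e-08). P3H2, a prolyl hydroxylase that acts on type IV collagen, was higher (0.85 ± 0.06, adjusted p = 2.11e-13), with 109 to 116 CPM in PSTK-KO libraries against 60.0 to 65.2 CPM in control libraries.

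Of 27 tested matrix glycoproteins, 8 were higher and 7 lower (29.6% and 25.9%), with a median of 0.01. FBLN1, a basement membrane glycoprotein, fell by 0.81 ± 0.04 on the log2 scale (edgeR adjusted p = 6.63e-16) and CTGF, a matricellular factor, by 0.80 ± 0.05 (adjusted p = 1.25e-13), while TGFBI, which binds collagen and integrins, rose (1.25 ± 0.08, adjusted p = 3.02e-14). Of 25 tested matrix proteases and inhibitors, 10 were higher and 5 lower (40.0% and 20.0%), with a median of 0.14. SERPINE2, an inhibitor of thrombin and plasminogen activators, had 112, 111 and 109 CPM in PSTK-KO libraries against 9.31, 8.97 and 8.22 CPM in control libraries (3.64 ± 0.08, adjusted p = 5.49e-27), and TIMP3, a matrix-bound inhibitor of metalloproteinases, rose by 1.16 ± 0.07 (adjusted p = 1.38e-14). Of 14 tested genes on a list of receptors other than integrins, most of which bind matrix proteins, 5 were higher and 3 lower (35.7% and 21.4%), with a median of 0.14. SDC4, a syndecan that acts with ITGA5 at focal adhesions, had 187, 189 and 194 CPM in PSTK-KO libraries against 79.3, 78.6 and 79.1 CPM in control libraries (1.27 ± 0.05, adjusted p = 6.72e-19), and CD44, a receptor for hyaluronan, rose too (0.86 ± 0.05, adjusted p = 6.70e-16), while PLXND1, a receptor for semaphorins rather than matrix, fell (-0.55 ± 0.05, adjusted p = 9.99e-11).

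In the screens, the guides of a member are meant to show how the cells that lost it fared in the pool. Between 77.2% and 97.4% of the nonzero guide counts in a library were even, whose cause was not tested. Members rested on few guides: over both T0 libraries together, the most abundant guide of a member held a median of 75.0% of its counts in Hep3B and 75.4% in SNU-398, and 37 and 39 of the 84 members had at least 80% of their counts in 1 guide. Of the member guides with a T0 count, 136 of 312 (43.6%) had no count in either T1 library of Hep3B, against 35.6% of all targeting guides, and 59 of 280 (21.1%) had none in SNU-398, against 18.8%. Guides that target nothing moved too, and 54.8% of the tested control guides were called between T1 and T0 in Hep3B and 21.1% in SNU-398. A library of SNU-398 stood apart, Erastin replicate 2, and the common coefficient of variation of that line was 0.123 with it and 0.0516 without it.

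Between T1 and T0 in Hep3B, 23 of 82 tested members were higher in T1 and 22 lower (edgeR on counts summed per gene), beside 29.1% and 33.5% of all genes, so the members' shares lay near the background. The lowest members were COL16A1 and ITGB8, which had no count in either T1 library, against 74 and 42 counts of COL16A1 and 42 and 20 counts of ITGB8 in T0 libraries, and COL10A1, with 0 and 2 counts in T1 against 54 and 40 in T0 libraries. Their fitted log2 fold changes of -7.90 ± 1.56, -6.99 ± 1.86 and -4.38 ± 1.08 (adjusted p = 1.61e-06, 4.27e-04 and 1.50e-04) depend on the prior count, and none of the 3 was called in DESeq2 (adjusted p = 0.0877, 0.342 and 0.486). Without T1 replicate 1, COL10A1 was not called by edgeR either (adjusted p = 0.0503). In the control RNA-seq libraries labelled Hep3B, ITGB8 stood at 1.53 FPKM, COL16A1 at 0.223 FPKM and COL10A1 at 0.0712 FPKM. Guides against a gene with almost no RNA there were thus among the most depleted.

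The highest members in Hep3B T1 were ITGA1, LAMC1 and ITGA8. ITGA1 guides had 13.8 and 13.9 CPM in T1 against 1.53 and 1.09 CPM in T0 libraries (3.35 ± 0.20, edgeR adjusted p = 2.67e-63), and 2 of its 4 guides carried all of its T1 counts. LAMC1 guides had 47.0 and 41.3 CPM in T1 against 12.5 and 14.0 CPM in T0 libraries (1.76 ± 0.09, adjusted p = 1.98e-80), and 1 guide held 79.1% of the T1 counts. ITGA8 had no count in any RNA-seq library. Its guides had 11.9 and 12.9 CPM in T1 against 6.77 and 7.56 CPM in T0 libraries (0.79 ± 0.16, adjusted p = 1.61e-06), all from 1 guide in T1. ITGB5 stood at 26.9 FPKM in the control RNA-seq libraries labelled Hep3B. Its guides were depleted, with 0.307 and 0.857 CPM in T1 against 6.33 and 6.95 CPM in T0 libraries (-3.70 ± 0.41, adjusted p = 7.35e-18). ITGB1 and ITGAV moved little, at 0.19 ± 0.05 and 0.16 ± 0.07 (adjusted p = 5.16e-05 and 0.0484). Of the T1 counts of ITGB1, 97.8% came from 1 of its 4 guides. The call of ITGAV was lost in DESeq2 (adjusted p = 0.0726) and without any of the 4 T0 and T1 libraries (adjusted p = 0.0676 to 0.235).

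Set beside the RNA level, the guide changes of expressed and silent members overlapped in Hep3B. The RNA levels are those of the control RNA-seq libraries labelled Hep3B, where most hepatocyte markers were nearly absent. Whether they hold for the screened Hep3B cells was not tested. The 16 tested members with at least 10 FPKM in control cells had a median log2 fold change of 0.15 between T1 and T0, with 7 higher and 3 lower. The 34 with at least 1 FPKM, which hold these 16 and ITGA1 and ITGB8, had a median of -0.04, with 10 higher and 10 lower. The 38 members under 0.1 FPKM had a median of -0.11, with 9 higher and 8 lower. The ranges were -3.70 to 1.76 at 10 FPKM or more, -6.99 to 3.35 at 1 FPKM or more and -4.38 to 0.79 under 0.1 FPKM.

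**Figure D4:**
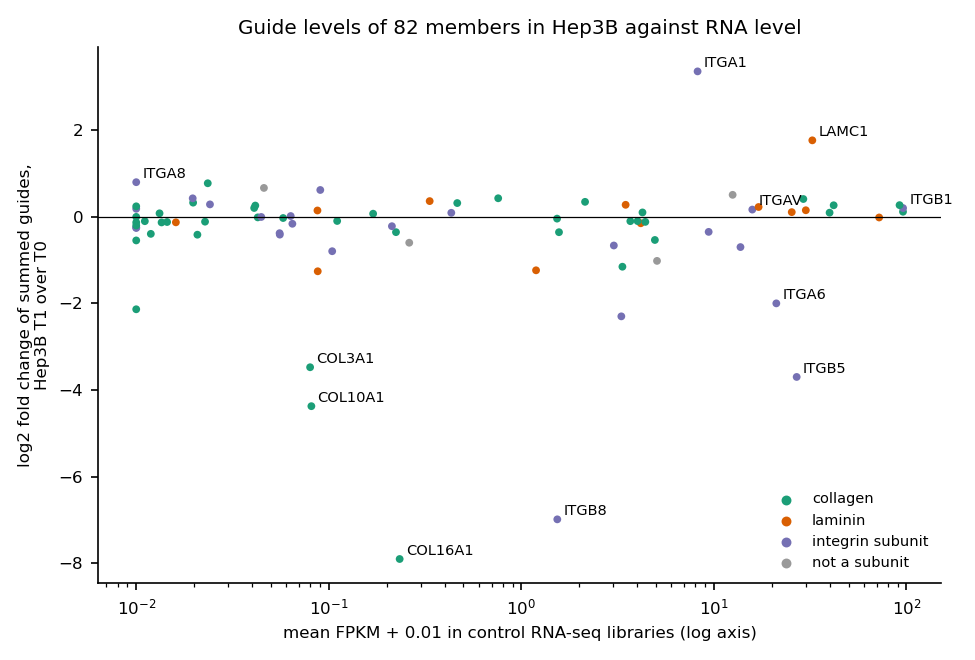
Log2 fold change of summed guide counts, T1 over T0 in Hep3B (vertical axis), against the mean FPKM + 0.01 in control RNA-seq libraries (horizontal log axis), for 82 members coloured by family. Members with almost no RNA (left) and well expressed ones (right) both lie mostly near 0, and the values of COL16A1 and ITGB8 rest on T1 counts of 0.

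In SNU-398, 5 of 84 tested members were higher and 7 lower in T1 than T0, beside 6.33% and 6.74% of all genes. Without Erastin replicate 2, which is in neither group but enters the filter, the scaling and the estimate of spread, 14 were higher and 19 lower, beside 19.2% and 20.0% of all genes. The lowest members were COL20A1 (-2.11 ± 0.72, edgeR adjusted p = 0.0643), COL19A1 (-1.91 ± 0.37, adjusted p = 0.00569) and COL10A1 (-1.86 ± 0.81, adjusted p = 0.141). Only COL19A1, a chain that sits at the edge of fibrils, passed, with 1.09 and 2.40 CPM in T1 against 6.11 and 6.27 CPM in T0 libraries, and it did not pass without T1 replicate 1 (adjusted p = 0.0882). The highest were ITGA10 (3.18 ± 0.74, adjusted p = 0.0142), ITGA3 (1.14 ± 0.41, adjusted p = 0.0745) and COL22A1 (0.94 ± 0.26, adjusted p = 0.0275). ITGA10 rested on 1 guide with 46 and 22 counts in T1 against 2 and 0 in T0 libraries. Its call was lost without either T1 replicate or without T0 replicate 1 (adjusted p = 0.0804, 0.0603 and 0.118), and that of COL22A1 without any of the 4 T0 and T1 libraries (adjusted p = 0.0794 to 0.215). ITGB1 rose slightly (0.31 ± 0.06, adjusted p = 0.00658) but not without either T0 replicate or T1 replicate 2 (adjusted p = 0.0610 to 0.0642), and ITGAV, ITGB5 and LAMC1 were not called (0.01 ± 0.09, -0.47 ± 0.35 and -0.13 ± 0.13, with adjusted p = 0.961, 0.391 and 0.528).

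Each inhibitor was set against T1 by NormZ, a score over the guides of a gene that is negative where its guides are depleted under the inhibitor (a resister) and positive where they are enriched (a sensitizer). The screens of a line share their T1 libraries, so their values are given side by side. The p of NormZ treats guides as the observations and does not measure the spread between cultures. At a one-sided p under 0.01, members gave 3 resister calls and 17 sensitizer calls among 1008 pairs of gene and screen, or 0.298% and 1.69%. Over all genes the shares were 1.68% and 0.839%. In Hep3B, 1 call was a resister and 4 were sensitizers, beside 1.77% and 0.825% of all genes, and in SNU-398 2 were resisters and 13 sensitizers, beside 1.59% and 0.854%. Of the 84 members, 68 were called in no screen, and only COL5A2, COL6A6, LAMB2 and LAMC1 were called in 2 screens.

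**Figure D5:**
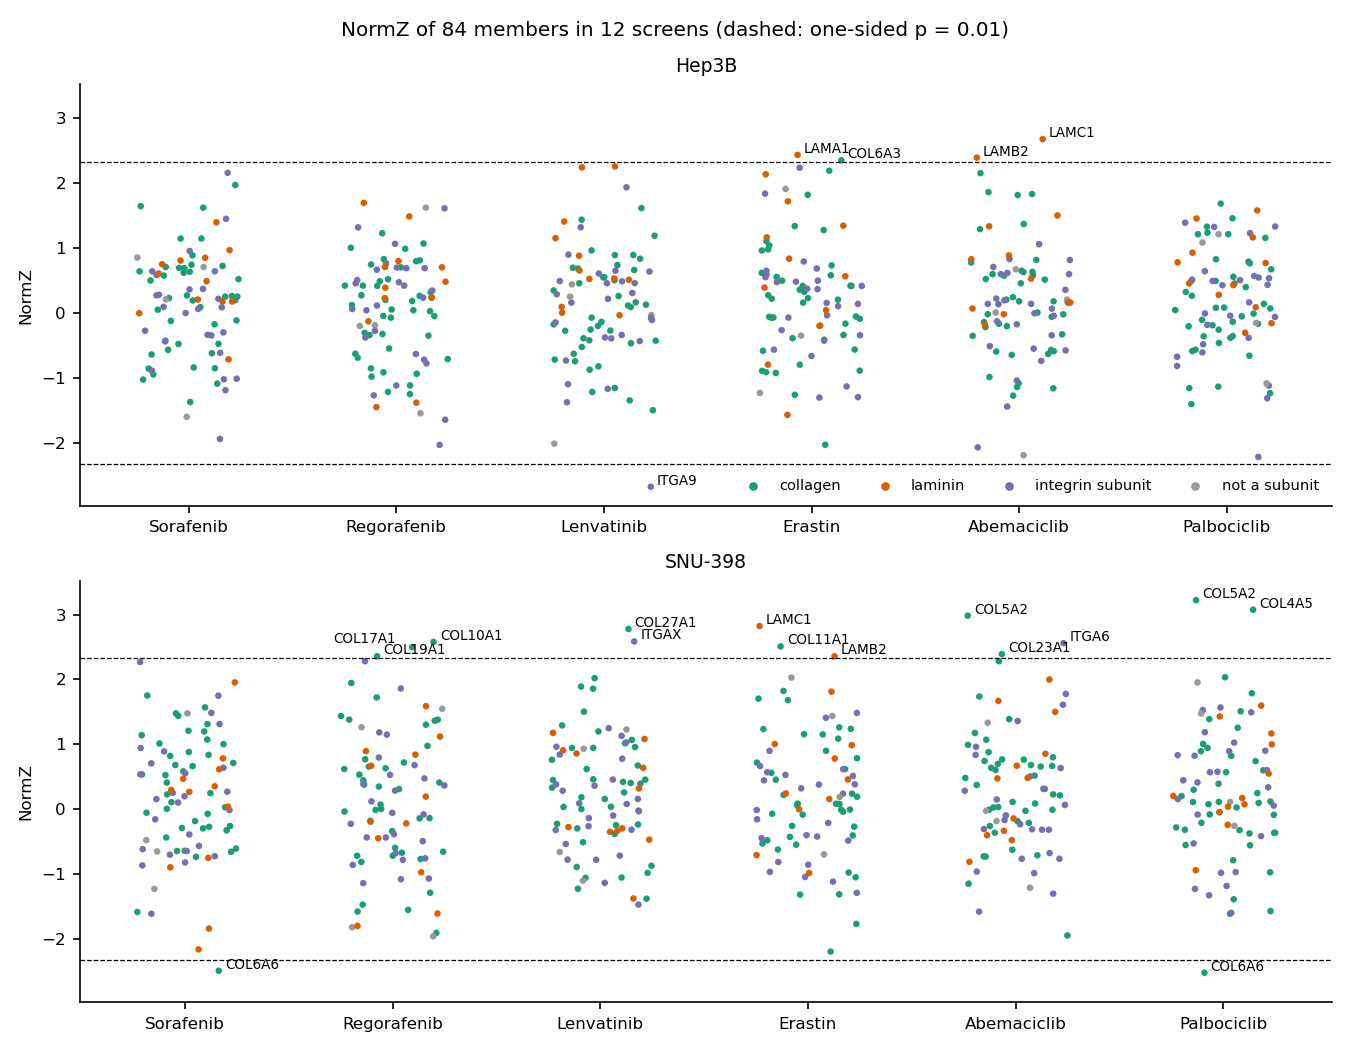
NormZ (vertical axis) of the 84 members in the 6 screens of Hep3B (top) and SNU-398 (bottom), 1 point per member coloured by family and spread sideways for sight, with dashed lines at a one-sided p of 0.01. The 20 named points lie beyond a line, 17 above the upper and 3 below the lower one.

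Laminin chains gave the calls seen in both lines. LAMC1 was a sensitizer for Abemaciclib in Hep3B (NormZ 2.67, rank 70 of 18029 genes) and for Erastin in SNU-398 (2.82, rank 44 of 18036 genes). LAMB2, the β chain of laminins at the neuromuscular junction and the glomerulus, was a sensitizer in the same 2 screens (2.39, rank 139, in Hep3B Abemaciclib, and 2.36, rank 146, in SNU-398 Erastin). LAMC1 guides had 72.3 and 78.6 CPM under Abemaciclib against 47.0 and 41.3 CPM in T1 of Hep3B (log2 fold change 0.76 ± 0.08, edgeR adjusted p = 6.51e-19), and LAMB2 guides had 111 and 117 CPM against 50.1 and 43.3 CPM (1.26 ± 0.07, adjusted p = 3.04e-81). The sum of LAMC1 rests on its guides unequally: 1 of the 4 had 506 and 264 counts under Abemaciclib against 24 and 4 in T1, while its most abundant guide had 886 and 569 against 956 and 430. Of the LAMB2 guides, the most abundant had 1228 and 744 counts against 724 and 304, another 818 and 463 against 256 and 134, and 1 more 94 and 40 against 148 and 54. In SNU-398, LAMC1 guides had 32.1 and 43.0 CPM under Erastin against 20.4 and 21.7 CPM in T1 (0.84 ± 0.13, adjusted p = 6.13e-04). Without Erastin replicate 2, the library that stood apart, LAMC1 and LAMB2 were no longer called there (NormZ 1.73 and 1.36). In Hep3B, LAMC1 moved in both directions across inhibitors by NormZ, at 0.75 for Sorafenib, -1.45 for Regorafenib, -0.04 for Lenvatinib, -1.57 for Erastin and 0.78 for Palbociclib, while LAMB2 lay between 0.18 and 2.24 in these 5 screens.

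COL5A2, the partner chain of COL5A1 in type V collagen, was a sensitizer for Abemaciclib (NormZ 2.98, rank 21) and Palbociclib (3.22, rank 19) in SNU-398, and its score for Palbociclib was the highest of any member in that line. Its guides had 54.9 and 49.2 CPM under Abemaciclib and 54.2 and 54.5 CPM under Palbociclib, against 38.3 and 34.5 CPM in T1, and 1 of its 3 guides held 92.3% of the T1 counts. In Hep3B its NormZ lay between -2.03 and -0.14, negative in all 6 screens. COL6A6 was a resister for Palbociclib (-2.52, rank 197 from the lowest) and Sorafenib (-2.49, rank 240) in SNU-398, and its score for Palbociclib was the lowest of any member in that line. Of its 4 guides, 1 held 89.1% of the T1 counts there. Another had 120 and 84 counts in T1, against 0 and 4 under Sorafenib and 60 and 36 under Palbociclib. By summed counts COL6A6 fell by 0.32 ± 0.08 on the log2 scale under Palbociclib (edgeR adjusted p = 0.0129), and the change under Sorafenib was not called (-0.15 ± 0.08, adjusted p = 0.132). Neither gene reached a mean of 0.2 FPKM in the RNA-seq libraries labelled Hep3B, and no RNA was measured here in SNU-398.

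ITGA9, an α subunit for tenascin and VCAM1, had the lowest NormZ in Hep3B, -2.68 for Lenvatinib (rank 171 from the lowest), and was negative for every other inhibitor there, at -1.31 to -2.22. Its guides had 0.583 and 0.337 CPM under Lenvatinib against 9.38 and 11.7 CPM in T1 (log2 fold change -4.39 ± 0.37, edgeR adjusted p = 5.68e-31), and the summed counts were lower under each of the other 5 inhibitors as well (-1.64 to -3.15). ITGA9 had at most 9 counts in any RNA-seq library. In SNU-398 its NormZ lay between -0.44 and 0.51.

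The subunits of the vitronectin receptor and ITGB1 passed in no screen by NormZ. ITGAV scored 2.16 for Sorafenib, 0.04 for Regorafenib, 1.32 for Lenvatinib, 2.23 for Erastin, 0.83 for Abemaciclib and 1.32 for Palbociclib in Hep3B, and between -0.87 and 0.32 in SNU-398. ITGB5 scored highest for Erastin in Hep3B, at 1.84, where its guides had 8.83 and 11.9 CPM against 0.307 and 0.857 CPM in T1, all of it from 1 of 4 guides with 198 and 152 counts under Erastin against 8 and 9 in T1. ITGB1 lay between -0.64 and 1.19 in the 12 screens. By summed counts, which compare libraries and not guides, ITGB1 was higher under each of the 6 inhibitors than in T1 of Hep3B (0.34 to 0.75, edgeR adjusted p = 2.95e-57 to 1.135e-12). Nearly all of that sum came from 1 of its 4 guides, with 3730 and 2335 counts under Palbociclib against 3148 and 1428 in T1. The p-values thus describe mainly that guide. Over the 6 screens together, members gave 162 higher and 162 lower calls in Hep3B, beside 32.8% and 37.5% of all pairs of gene and screen, and 101 higher and 63 lower calls in SNU-398, beside 13.3% and 15.1%. Per screen, 23 to 30 of 82 members were higher and 22 to 31 lower under each inhibitor in Hep3B, beside 28.7% to 35.2% and 33.2% to 41.6% of all genes, and 53.6% to 73.8% of control guides were called there. In SNU-398, 4 to 23 of 84 members were higher and 1 to 17 lower, beside 2.39% to 21.1% and 2.38% to 23.2% of all genes, with 2.75% to 44.0% of control guides called.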

How the data were processed

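Guide counts and RNA-seq counts are whole numbers as deposited. Per the submitters' processing notes the tools were Bowtie2, HISAT2 2.0.5 and featureCounts 1.5.0-p3, with mm9 as the build, although the genes are human. In GRCh38.p14, 83 of 86 members lie on the same chromosome and cover over 80% of their RefSeq span. The authors derived the deposited FPKM from the gene counts. Their columns of group means, log2 fold changes, p-values and adjusted p-values were left unused, and no other per-sample column was set aside (0).

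Differences were fitted with edgeR 4.0.16 in R 4.3.3 (TMM, filterByExpr, quasi-likelihood), for RNA-seq over 6 libraries and for guide counts, summed by gene, over the 16 libraries of a line. NormZ followed DrugZ (pseudocount 5, windows of 1000 guides), pairing inhibitor and T1 libraries by number, in Python 3.11.15 with numpy 2.4.6, pandas 2.3.3 and scipy 1.17.1; plots used matplotlib 3.10.9. The alternatives were DESeq2 1.42.0, limma 3.58.1 on log2(FPKM + 1), no filter on low counts, a replicate block, another pseudocount, guide minimum or p threshold, and leaving out libraries. The fits were tested on simulated data.

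The members and lists were chosen with earlier results of these data known. Named by rule were called members reaching a mean of 1 CPM in either group, by size of change (up to 12 each way), the 5 most abundant per family, tested laminins (1 is not reported here), partner integrins, symbols that are no subunit, up to 4 genes per list, members called in 2 or more screens, the extremes of NormZ and of T1 against T0 in each line, and ITGAV, ITGB1, ITGB5 and LAMC1. COL1A2, COL17A1, AFP, genes overlapping members and leukocyte α subunits were named after their values were seen. Intervals cover counting error only.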

Additional observations from a re-analysis of the deposited data

Results flagged for a closer look

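The change of several members between T1 and T0 differed between the lines by an interaction test over both lines (edgeR, adjusted p under 0.05). The difference of Hep3B minus SNU-398 in log2 fold change was positive for ITGA1 (4.94), COL20A1 (2.32), LAMC1 (1.89), COL19A1 (1.73) and ITGA8 (1.18). It was negative for ITGA3 (-7.80), ITGB8 (-6.76), COL16A1 (-6.30), ITGA10 (-3.60), ITGB5 (-3.15) and COL22A1 (-0.93). The values of ITGA3, ITGB8 and COL16A1 rest on Hep3B T1 libraries with no count and depend on the prior count. Under inhibitors, the same difference was -4.68 for ITGA9 with Lenvatinib, -1.90 for LAMC1 with Erastin, -0.95 and -0.48 for COL5A2 with Palbociclib and Abemaciclib, 1.04 for LAMB2 with Abemaciclib and 0.37 for COL6A6 with Palbociclib. These genes were chosen for their values in the same screens, control guides were also called in them, and the part of the few dominant guides was not tested.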

How the results depend on the processing

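Of 38 named RNA-seq genes, 31 were called, and 22 of these kept their call and direction under all 10 alternatives. On the log2(FPKM + 1) scale (limma) 9 rather than 18 members were higher in PSTK-KO, beside 6.75% rather than 15.6% of all genes. Hep3B resisters by NormZ, 1 in the report, were 3 with a pseudocount of 1, 0 with guides of at least 30 mean T1 counts and 9 at p under 0.05, and Hep3B sensitizers, 4 in the report, were 1, 2 and 22. SNU-398 sensitizers, 13 in the report, were 8, 4 and 37, and its 2 resisters became 11 at p under 0.05. With 1 replicate left out, Hep3B resisters were 0 to 3, Hep3B sensitizers 0 to 5 and SNU-398 resisters 1 to 3. Between T1 and T0, leaving out a library gave 15 to 22 higher members in Hep3B, and 0 to 2 higher and 0 to 2 lower in SNU-398 (0.745% to 1.47% and 0.912% to 1.21% of all genes), where guides of at least 30 counts gave 3 lower. Leaving out a T1 or inhibitor replicate in SNU-398 gave 50 to 65 higher and 38 to 52 lower calls under inhibitors. The shares of all pairs of gene and screen were then 7.03% to 10.5% and 8.90% to 12.1%. Without Erastin replicate 2, SNU-398 had 14 higher and 19 lower members between T1 and T0, and 152 higher and 105 lower calls under inhibitors, beside 23.5% and 25.3% of all pairs of gene and screen. The cause of these shifts was not tested.

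Same-numbered libraries did not deviate together by gene (correlations of -0.002 to 0.099 in RNA-seq and -0.022 to 0.047 in the screens). This cannot show that same-numbered libraries shared no processing. In every screen group, replicate 1 held more counts than replicate 2, as in Hep3B T1 with 24555074 against 12096140. With a replicate block, 19 members were higher and 16 lower in PSTK-KO, with ITGB1 and LAMA5 among them (edgeR adjusted p = 0.0228 and 0.0480). The block gave 23 higher and 22 lower in Hep3B and 6 and 6 in SNU-398 between T1 and T0, and 162 and 160 in Hep3B and 98 and 64 in SNU-398 under inhibitors. NormZ without the pairing gave 1 resister and 3 sensitizers in Hep3B and 2 and 11 in SNU-398.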
